A study of Arabidopsis thaliana with 9 samples.

Results

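The genes described here are the Aux/IAA genes of Arabidopsis whose current symbol is IAA followed by a number, together with WES1, an auxin-conjugating GH3 gene, where a probe set on the array is paired with that 1 gene. This rule gave 9 genes, 8 Aux/IAA genes and WES1, each with 1 probe set, among 16722 probe sets paired with 1 gene and 38408 in all. The Arabidopsis family list used here has 29 Aux/IAA loci, so 21 of them are not analysed here.

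Auxin is a growth hormone that acts by removing repressors. Aux/IAA proteins bind auxin response factors and hold auxin-responsive genes back. In the presence of auxin, receptors of the TIR1 and AFB family take up an Aux/IAA protein through its degron, the stretch that marks it for destruction. Many Aux/IAA genes are themselves switched on by auxin, as are several GH3 genes, whose enzymes join auxin to amino acids and so lower its active amount. WES1, also called GH3.5, is one of these GH3 enzymes and can act on salicylic acid as well.

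Whole-plant RNA of Arabidopsis thaliana was taken after 21 days, and 3 arrays were run for each of 3 groups. All groups grew in boxes on agar with mineral salts and sucrose, and the labels used here name no ecotype or genotype. Control plants had only the acetone used as carrier. Plants of the 2,5-DCB group had 2,5-dichlorobiphenyl, a chlorinated biphenyl, at 50 mg per L. Plants of the 4'-OH-2,5-DCB group had a derivative that carries a hydroxyl group, at 5 mg per L. The exposed groups thus differ both in compound and in dose. The labels do not tie an array to particular plants or boxes, so the spread behind each p-value may be partly or wholly technical.

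Replicate 1 of 4'-OH-2,5-DCB stood apart from the others. Its SD across probe sets was 1.68 log2 units against 2.13 to 2.20 on the other 8 arrays, and its 25th percentile was 3.72 against 2.80 to 3.01. Its best Pearson r with any other array, across probe sets and so over values that are not independent, was 0.927. Any pair of the other 8 arrays reached at least 0.956. Of the marker genes for tissues, 3 of 14 green tissue genes, 3 of 10 root genes and 0 of 8 flower genes were named on the array. The mean log2 signal of the green tissue genes was 10.2 to 10.3 on the control arrays, 9.54 to 9.80 under 2,5-DCB and 9.51 to 10.1 under 4'-OH-2,5-DCB. The mean log2 signal of the root genes was 5.52 to 5.59, 5.81 to 6.22 and 5.97 to 6.38 in the same order, and their summed linear signal 1287 to 1816, 2410 to 3436 and 2579 to 4410. The root genes were PYK10, EXPA7 and EXPA18, and PYK10 made up most of that sum. Group means in the same order were 10.6, 11.5 and 11.7 for PYK10 (log2 signal). They were 3.13, 3.57 and 3.69 for EXPA7 and 2.94, 3.14 and 3.18 for EXPA18. Both of these genes were dim and may be near background. EXPA18 lay below the 25th percentile of the tested probe sets on 2 control arrays and on 1 array of each exposed group. EXPA7 lay at percentiles 27.3 to 37.2. PYK10 was called higher than in the control under 4'-OH-2,5-DCB (log2 change 1.11, limma adjusted p 0.0438) but not under 2,5-DCB (0.88, limma adjusted p 0.0770). Neither EXPA7 nor EXPA18 was called against the control. Of the green tissue genes RCA, LHCB4.1 and LHCB4.2, only LHCB4.2 was called, lower under 2,5-DCB (log2 change -0.95, limma adjusted p 0.0308). With 1 array left out, PYK10 kept its call in 1 of 9 cases and LHCB4.2 in 4 of 9. The summed linear signal of the green tissue genes was 4465 to 4728, 3025 to 3574 and 2994 to 4293. These differences run alongside the falls of IAA29 and WES1 given next, and their part in them was not tested.

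Of the 9 genes, WES1 was lower than in the control in both exposed groups and IAA29 was lower under 2,5-DCB. No other gene passed the test in either comparison, and none was higher. In limma, with a Benjamini-Hochberg adjusted p under 0.05 over all 16722 probe sets, 2 of 9 genes were called under 2,5-DCB (22.2%), both lower, where 4.65% of all tested probe sets were called, 2.82% lower and 1.82% higher. Under 4'-OH-2,5-DCB 1 of 9 was called (11.1%), where 2.91% of all were called, 1.90% lower and 1.00% higher. The 9 genes were chosen with earlier results of these data known, WES1 by name. Their shares are therefore a description and not a test against all probe sets. The median log2 change of the 9 genes was -0.16 in the former comparison and 0.07 in the latter, against 0.04 and 0.10 over all tested probe sets. Both comparisons use the same 3 control arrays. In whole plants, fewer cells of a type and less RNA per cell cannot be told apart.

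**Figure D1:**
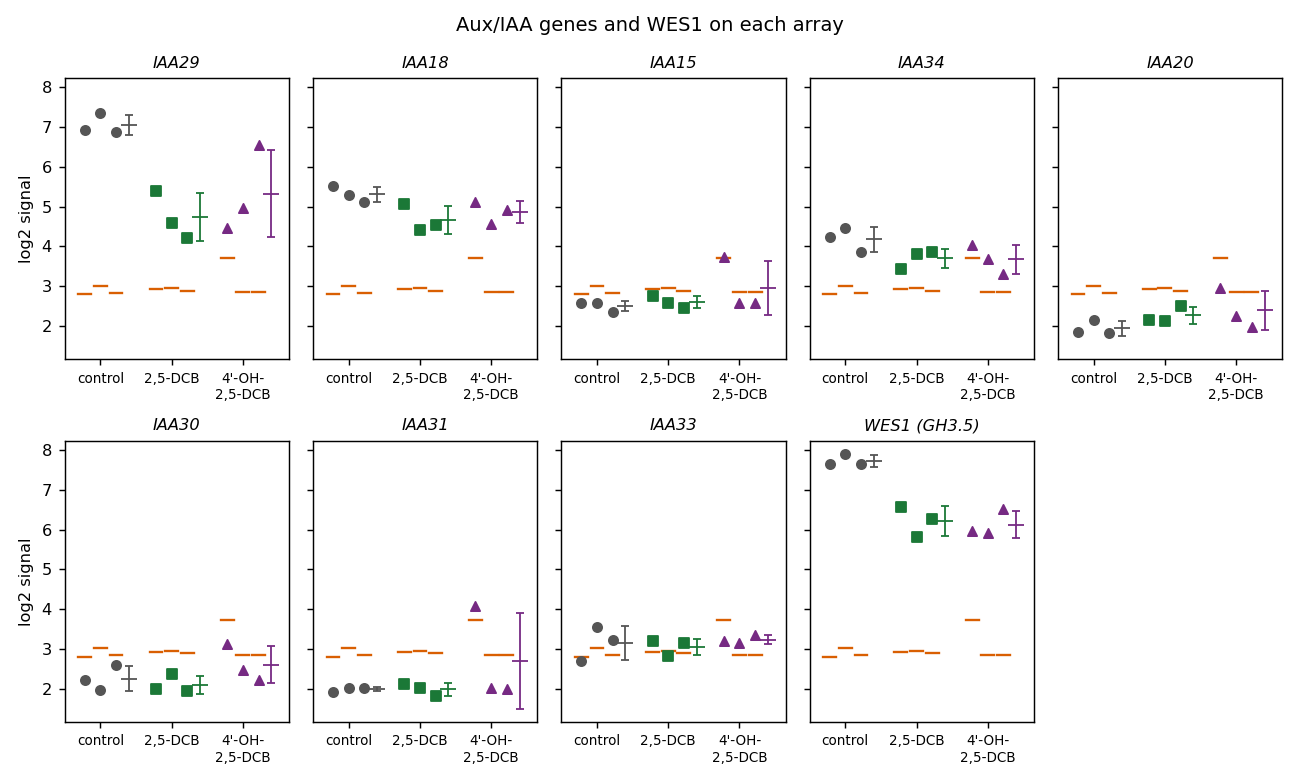
Log2 signal (vertical axis) of each of the 9 genes on each of the 9 arrays, by group; points are arrays in the order of their replicate numbers, the bar beside them is the group mean ± SD (n = 3), and the short orange lines mark the 25th percentile of all tested probe sets on that array. IAA29 and WES1 lie highest on the control arrays, IAA15, IAA20, IAA30 and IAA31 lie near or below the orange lines, and those lines lie highest on 4'-OH-2,5-DCB replicate 1.

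IAA29 encodes an Aux/IAA protein whose gene is known to respond to shade and warmth as well as to auxin. Its log2 signal was 6.93, 7.35 and 6.89 on control arrays 1, 2 and 3, and 5.40, 4.59 and 4.22 on the arrays of 2,5-DCB. Under 4'-OH-2,5-DCB it was 4.46, 4.98 and 6.55. All 3 arrays of each exposed group were below all 3 control arrays, but replicate 3 of 4'-OH-2,5-DCB came close to the lowest control, and the exposed groups overlapped each other. The mean log2 signal fell from 7.05 ± 0.26 (SD, n = 3) in the control to 4.74 ± 0.60 under 2,5-DCB, a log2 change of -2.32 (SE 0.50, limma adjusted p 0.0323). This is a 4.99-fold lower signal, with a 95% interval of 2.30 to 10.8. It was number 45 from the bottom when the 16722 log2 changes were ordered, and number 554 when ordered by p-value.

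Under 4'-OH-2,5-DCB the mean log2 signal of IAA29 was 5.33 ± 1.09 (SD, n = 3). The log2 change of -1.73 (SE 0.50) had an unadjusted 95% interval of -2.85 to -0.61 and did not pass (limma adjusted p 0.108). The SD of this group was the widest of the 3, and replicate 3 was its highest array. Without that array the log2 change was -2.34 and passed (limma adjusted p 0.0184). Without replicate 1, the array with the narrow range, it was -1.29 (limma adjusted p 0.150). A call under 2,5-DCB next to none under 4'-OH-2,5-DCB does not show that the groups differ. Subtracting 2,5-DCB from 4'-OH-2,5-DCB gave a log2 difference of 0.59 (unadjusted 95% interval -0.53 to 1.71, limma adjusted p 0.627).

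WES1 fell in both exposed groups by amounts close to each other. Its log2 signal was 7.65, 7.90 and 7.65 on the control arrays, 6.56, 5.82 and 6.28 under 2,5-DCB, and 5.96, 5.92 and 6.51 under 4'-OH-2,5-DCB. Each exposed group lay wholly below the control, by more than the spread of any group, and the exposed groups overlapped. The mean log2 signal was 7.73 ± 0.15 in the control, 6.22 ± 0.37 with 2,5-DCB and 6.13 ± 0.33 with 4'-OH-2,5-DCB (SD, n = 3 each). The log2 change was -1.52 under 2,5-DCB (SE 0.23, limma adjusted p 0.00953), a 2.86-fold lower signal with a 95% interval of 1.98 to 4.12. Under 4'-OH-2,5-DCB it was -1.61 (SE 0.23, limma adjusted p 0.00989), 3.05-fold lower with an interval of 2.11 to 4.39. Ordered by p-value, WES1 stood at number 175 of 16722 in the former comparison and number 105 in the latter. The difference between the exposed groups was -0.09 on the log2 scale, with a 95% interval of -0.62 to 0.44 and a limma adjusted p of 0.872.

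The calls depended on single arrays to different degrees. With 1 of the 9 arrays left out in turn, WES1 kept its call in 8 of 9 cases in each comparison with control. The exception was control replicate 2, without which the limma adjusted p was 0.0568 for 2,5-DCB (log2 change -1.43) and 0.0605 for 4'-OH-2,5-DCB (-1.52). IAA29 under 2,5-DCB kept its call in 4 of 9 cases. It lost it without control replicate 1, 2 or 3 (limma adjusted p 0.0900, 0.141 and 0.0914) and without 2,5-DCB replicate 2 or 3 (limma adjusted p 0.134 and 0.131). Its log2 change stayed between -2.65 and -2.06 in all 9 cases. In the same fits the number of probe sets called under 2,5-DCB ranged from 181 to 2161, against 777 with all arrays.

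**Figure D2:**
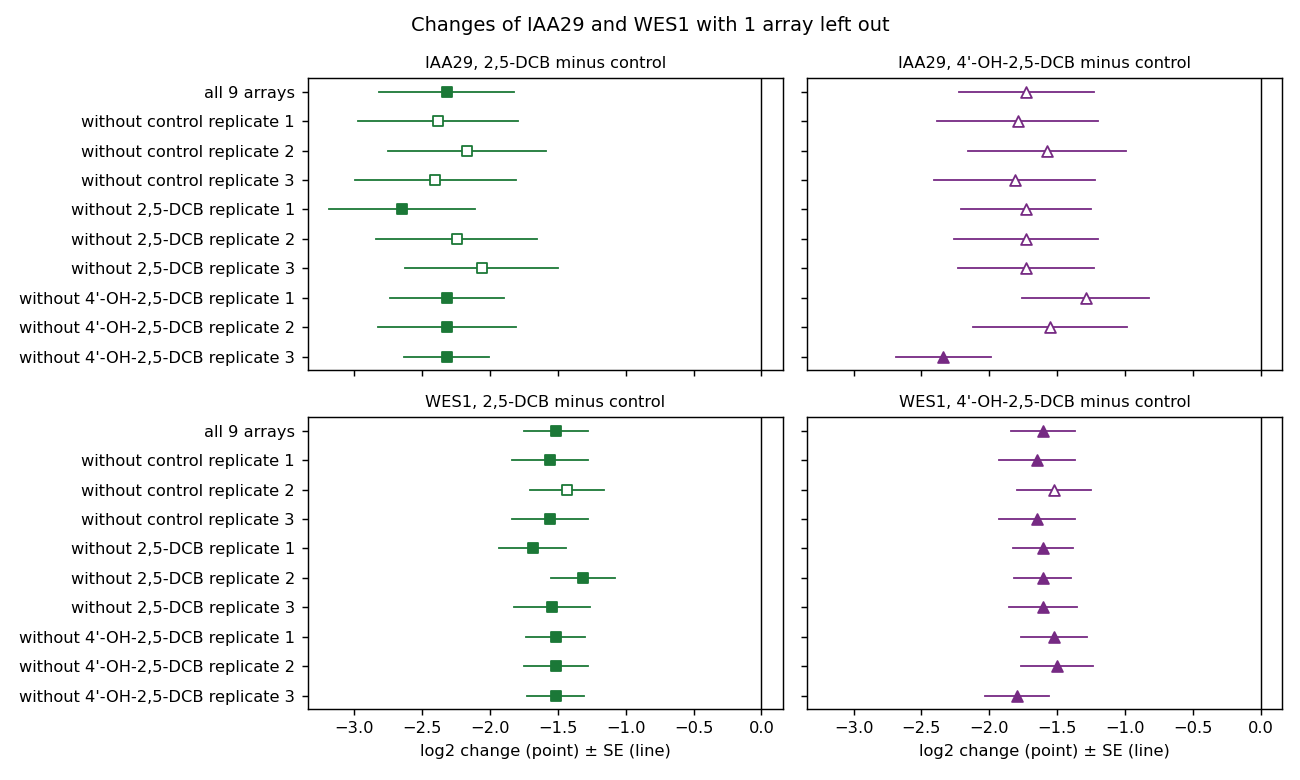
Log2 change of IAA29 (upper panels) and WES1 (lower panels) against the control, for 2,5-DCB on the left and 4'-OH-2,5-DCB on the right, with all 9 arrays and with each array left out; lines are ± SE of the limma fit, filled points have an adjusted p under 0.05 and open points do not. The change of WES1 stays between -1.80 and -1.32 across the panels, while that of IAA29 under 4'-OH-2,5-DCB moves from -2.34 to -1.29 with the array left out.

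IAA18 and IAA34 had the next lowest changes in both comparisons, and neither passed in either. IAA18 is an Aux/IAA gene whose stabilising mutations disturb embryo and lateral root patterning. Its log2 signal was 5.51, 5.30 and 5.12 on the control arrays, 5.07, 4.41 and 4.54 under 2,5-DCB, and 5.11, 4.56 and 4.91 under 4'-OH-2,5-DCB. Both exposed groups lay below the lowest control array, but only just, since the lowest control array was at 5.12. Group means were 5.31 ± 0.19, 4.67 ± 0.35 and 4.86 ± 0.28 in the order control, 2,5-DCB and 4'-OH-2,5-DCB (log2 signal, SD, n = 3 each). The log2 change was -0.64 under 2,5-DCB (95% interval -1.15 to -0.13, limma adjusted p 0.179) and -0.45 under 4'-OH-2,5-DCB (-0.96 to 0.06, limma adjusted p 0.346). With IAA29 and WES1, IAA18 makes 3 of 9 genes (33.3%) whose exposed arrays were all below the control arrays in each comparison. Over all tested probe sets that share was 14.1% with 2,5-DCB and 11.4% with 4'-OH-2,5-DCB. Since the 9 genes were chosen with earlier results of these data known, these shares are a description too.

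IAA34 belongs to the Aux/IAA proteins that lack the conserved degron, and it is known as a target of the receptor kinase TMK1 in the apical hook. Its log2 signal was 4.23, 4.47 and 3.85 in the control, 3.43, 3.80 and 3.87 under 2,5-DCB, and 4.03, 3.69 and 3.304 under 4'-OH-2,5-DCB. The groups overlapped, although 2 of the 3 control arrays were above all exposed arrays. For 4'-OH-2,5-DCB the overlap with the control came from replicate 1 alone, the array with the narrow range. There IAA34 was at percentile 31.9 of the tested probe sets, against 39.1 to 45.8 on the control arrays. Without that array the log2 change under 4'-OH-2,5-DCB was -0.68 and did not pass (limma adjusted p 0.106). Group means were 4.18 ± 0.31, 3.70 ± 0.23 and 3.67 ± 0.36 in the same order (SD, n = 3 each). The log2 changes were -0.48 (95% interval -1.02 to 0.06) and -0.51 (-1.04 to 0.03), with limma adjusted p-values of 0.382 and 0.317.

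**Figure D3:**
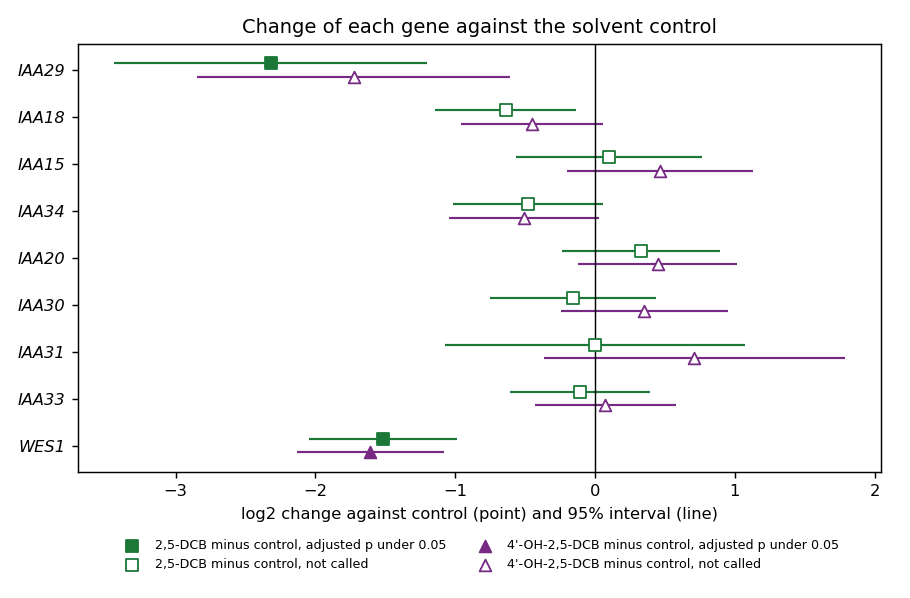
Log2 change of each of the 9 genes against the control (horizontal axis), with the unadjusted 95% interval of the limma fit as a line; squares are 2,5-DCB and triangles 4'-OH-2,5-DCB, and filled symbols passed an adjusted p of 0.05. Only IAA29 under 2,5-DCB (-2.32) and WES1 in both groups (-1.52 and -1.61) are filled; the interval of IAA18 under 2,5-DCB and that of IAA29 under 4'-OH-2,5-DCB also leave out 0.

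The other 5 Aux/IAA genes were dim. IAA20, IAA30, IAA31 and IAA33 also lack the conserved degron or carry a diverged one, whereas IAA15 carries it. IAA20 and IAA30 lay below the 25th percentile of the tested probe sets on each of the 9 arrays. IAA15 and IAA31 lay below it on the 8 arrays other than 4'-OH-2,5-DCB replicate 1, and IAA33 on 1 array of each group. Signals this dim may be background, so a small difference in them says little about the transcript.

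IAA15 had log2 signals of 2.57, 2.57 and 2.35 in the control, 2.76, 2.57 and 2.46 under 2,5-DCB, and 3.75, 2.57 and 2.57 under 4'-OH-2,5-DCB. IAA31 had 1.92, 2.01 and 2.01 in the control, 2.12, 2.01 and 1.81 under 2,5-DCB, and 4.09, 2.01 and 1.98 under 4'-OH-2,5-DCB. Both genes were nearly level apart from replicate 1 of 4'-OH-2,5-DCB. Of the 9 arrays 5 held exactly the same deposited value of IAA15, and 4 held the same value of IAA31. A value shared by at least 2 arrays was found in 45.3% of tested probe sets.

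IAA20 had log2 signals of 1.84, 2.16 and 1.82 in the control, 2.16, 2.14 and 2.51 under 2,5-DCB, and 2.94, 2.24 and 1.99 under 4'-OH-2,5-DCB. IAA30 had 2.21, 1.95 and 2.59 in the control, 1.99, 2.36 and 1.94 under 2,5-DCB, and 3.12, 2.48 and 2.22 under 4'-OH-2,5-DCB. In both genes every pair of groups overlapped. IAA33 had 2.70, 3.55 and 3.22 in the control, 3.19, 2.83 and 3.14 under 2,5-DCB, and 3.198, 3.14 and 3.36 under 4'-OH-2,5-DCB. Its widest spread was among the control arrays (SD 0.43, n = 3), and all exposed arrays fell within it. Its log2 changes were -0.11 and 0.07 (limma adjusted p 0.948 and 0.862).

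Replicate 1 of 4'-OH-2,5-DCB gave the highest value of IAA15 (3.75), IAA20 (2.94), IAA30 (3.12) and IAA31 (4.09). With it, the log2 changes of these genes under 4'-OH-2,5-DCB were 0.46, 0.45, 0.35 and 0.71 in that order. Without it they were 0.07, 0.17, 0.09 and 0.01. None passed with or without it: the limma adjusted p-values were 0.394 to 0.490 with it and 0.628 to 0.963 without it. Under 2,5-DCB the log2 changes of these 4 genes were 0.10, 0.33, -0.16 and 0.00, with limma adjusted p-values of 0.661 or more.

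Between the exposed groups, 0 of 9 genes passed in limma, and 0 had an unadjusted p under 0.05. Over all tested probe sets 0 passed as well (0%), while 1656 had an unadjusted p under 0.05. The exposed groups overlapped for each of the 9 genes, while 15.2% of all tested probe sets showed no overlap between these groups. Leaving out IAA29 and WES1, the log2 differences (signal under 4'-OH-2,5-DCB less that under 2,5-DCB) ran from -0.03 for IAA34 to 0.71 for IAA31. Without replicate 1 of 4'-OH-2,5-DCB, the array with the narrow range, they were -0.20 for IAA34 and 0.01 for IAA31. With all arrays the interval of IAA31 reached from -0.36 to 1.79 and that of IAA34 from -0.56 to 0.51. Differences of moderate size in either direction were thus not detectable with these 3 arrays per group. Since the doses were 50 and 5 mg per L, these differences are between the groups and not between the compounds at 1 dose.

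The rest of the auxin pathway was thinly covered by the named probe sets. Of 85 further loci in the list of auxin genes, 12 were measured. They were 4 YUC genes, whose flavin monooxygenases make auxin, and 8 genes of conjugation and turnover, while the auxin response factors, the receptors, the transporters and the SAUR growth genes had none and are not analysed here. In limma 0 of 12 were called under either exposure, against 4.65% and 2.91% of all tested probe sets. At an unadjusted p under 0.05 there were 2 of 12 with 2,5-DCB and 3 of 12 with 4'-OH-2,5-DCB. Over all 16722 tested probe sets there were 2697 and 2888. The 12 auxin genes had a median log2 change of 0.07 and 0.19, against 0.04 and 0.10 over all tested probe sets. Changes of the 12 ran from -0.74 to 0.77 and from -0.63 to 1.05.

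Among these 12, GH3.9 had the smallest p-value against the control under 2,5-DCB and AT1G14120 under 4'-OH-2,5-DCB. GH3.9, a GH3 gene linked to root growth, had log2 signals of 5.65, 6.36 and 6.14 in the control, 5.43, 5.42 and 5.07 under 2,5-DCB, and 5.48, 5.28 and 5.51 under 4'-OH-2,5-DCB. Both exposed groups lay below the control without overlap. Its log2 change was -0.74 under 2,5-DCB (limma adjusted p 0.0868) and -0.63 under 4'-OH-2,5-DCB (limma adjusted p 0.165). Without 4'-OH-2,5-DCB replicate 1 the former passed, with a limma adjusted p of 0.0410. AT1G14120, which stood in the list of conjugation and turnover genes, had log2 signals of 3.18, 3.22 and 2.79 in the control, 3.73, 3.33 and 3.58 under 2,5-DCB, and 4.05, 4.59 and 3.70 under 4'-OH-2,5-DCB. Both exposed groups lay above the control, unlike GH3.9. AT1G14120 was dim, however, at percentiles 24.0 to 30.8 of the tested probe sets on the control arrays. On 4'-OH-2,5-DCB replicate 1, the array with the narrow range, its signal of 4.05 was only at percentile 32.4. Its log2 change was 1.05 under 4'-OH-2,5-DCB (SE 0.24, limma adjusted p 0.0545) and 0.48 under 2,5-DCB (limma adjusted p 0.390). The former passed without 4'-OH-2,5-DCB replicate 1 (limma adjusted p 0.0456) or replicate 3 (0.0359).

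WES1 was the only one of 6 measured GH3 genes that passed in either comparison with control, where 4.65% and 2.91% of all tested probe sets passed. It was chosen by name with earlier results of these data known. This count and the comparisons of size below are therefore a description. The other 5 were GH3.1, GH3.3, GH3.4, GH3.9 and GH3.17, and whether their changes differ from that of WES1 was not tested. GH3.17, whose enzyme joins auxin to glutamate, had group means of 5.90 ± 0.10, 6.005 ± 0.07 and 6.09 ± 0.12 for control, 2,5-DCB and 4'-OH-2,5-DCB (log2 signal, SD, n = 3 each). Its log2 changes of 0.11 and 0.20 had 95% intervals of -0.22 to 0.43 and -0.13 to 0.52, which do not reach the size of the changes of WES1. The 95% intervals of GH3.9 were -1.21 to -0.27 and -1.10 to -0.16 in the same order. These overlap those of WES1, which were -2.04 to -0.99 and -2.13 to -1.08. GH3.1 had log2 changes of 0.13 and 0.49, and GH3.4 of -0.06 and 0.19. GH3.3 had log2 signals of 5.60, 4.64 and 4.47 in the control, 5.90, 5.48 and 5.64 under 2,5-DCB, and 3.99, 4.29 and 4.75 under 4'-OH-2,5-DCB. The control arrays overlapped with both exposed groups, and the exposed groups did not overlap each other.

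**Figure D4:**
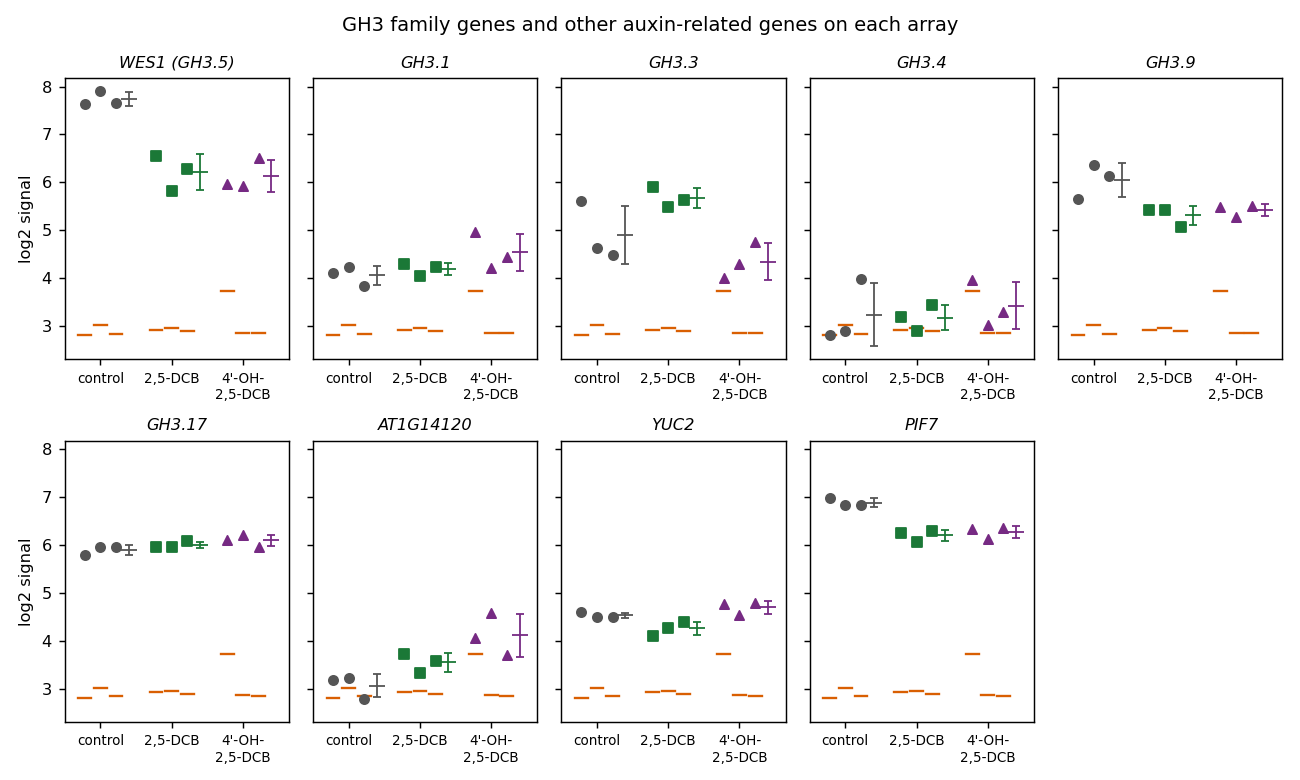
Log2 signal (vertical axis) on each of the 9 arrays for WES1, the 5 other measured GH3 genes, AT1G14120, YUC2 and PIF7; points are arrays, bars are group means ± SD (n = 3) and the short orange lines are the 25th percentile of tested probe sets on that array. WES1, GH3.9 and PIF7 lie lower on the exposed arrays, AT1G14120 higher, and GH3.3 is high under 2,5-DCB and low under 4'-OH-2,5-DCB.

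Of 12 genes of the shade response, in which IAA29 takes part, only PIF7 was measured. PIF7 is a light-controlled transcription factor that raises auxin synthesis in shade. Its log2 signal was 6.99, 6.83 and 6.84 in the control, 6.24, 6.07 and 6.29 under 2,5-DCB, and 6.33, 6.13 and 6.36 under 4'-OH-2,5-DCB. All exposed arrays lay below the control arrays. It fell by 0.69 on the log2 scale under 2,5-DCB (SE 0.15, limma adjusted p 0.0327), while the change of -0.62 under 4'-OH-2,5-DCB did not pass (limma adjusted p 0.0620). The call under 2,5-DCB was lost without control replicate 1, 2 or 3 (limma adjusted p 0.115, 0.116 and 0.0948) and without 2,5-DCB replicate 1, 2 or 3 (0.0857, 0.148 and 0.0943). The change under 4'-OH-2,5-DCB passed without replicate 1 of that group (limma adjusted p 0.0244).

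For IAA29 and WES1 the genes of most similar pattern were sought by the Pearson r of log2 signals over the 9 arrays, which share the same 3 groups. Such an r mostly follows the group means and is given as a description. Genes picked this way share the array pattern of the member by selection. Likenesses in single arrays or in calls are thus no separate findings. The 3 genes most like IAA29 were AT1G67900 (r 0.965), AT5G62280 (0.958) and KICP-02 (0.958). As with IAA29, replicate 3 of 4'-OH-2,5-DCB was the highest exposed array for each of them. Over the 8 arrays without 4'-OH-2,5-DCB replicate 1 their r was 0.966, 0.963 and 0.950. Their log2 changes were -1.60, -1.72 and -1.17 under 2,5-DCB and -1.16, -1.20 and -0.87 under 4'-OH-2,5-DCB. They were called in limma under 2,5-DCB (adjusted p 0.0317, 0.0478 and 0.0157) and not under 4'-OH-2,5-DCB (adjusted p 0.117, 0.178 and 0.0605). With 1 array left out, AT1G67900 and AT5G62280 each kept the call under 2,5-DCB in 3 of 9 cases, and KICP-02 in 5 of 9. Their highest limma adjusted p in these fits was 0.135, 0.186 and 0.0792. KICP-02 passed under 4'-OH-2,5-DCB in 5 other settings, among them quantile normalization (limma adjusted p 0.0305).

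The 3 genes most like WES1 were AT5G16810 (r 0.985), AT3G47080 (0.980) and ATMND1 (0.979), the last a gene of meiotic recombination. Over the 8 arrays r was 0.984, 0.977 and 0.983. In the same order they had log2 changes of -0.83, -1.13 and -0.79 for 2,5-DCB and -0.90, -1.21 and -0.88 under 4'-OH-2,5-DCB, each smaller than that of WES1. AT3G47080 was called in limma in both comparisons (adjusted p 0.00604 and 0.00679), as was AT5G16810 (0.0318 and 0.0312), while ATMND1 passed under 4'-OH-2,5-DCB (0.0465) and not under 2,5-DCB (0.0519). With 1 array left out, AT3G47080 kept both calls in 9 of 9 cases. AT5G16810 was called in 4 and 3 of 9 cases in the same order of comparisons, and ATMND1 in 1 and 2 of 9. IAA29 and WES1 had an r of 0.901 with each other over 9 arrays and of 0.888 over 8.

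**Figure D5:**
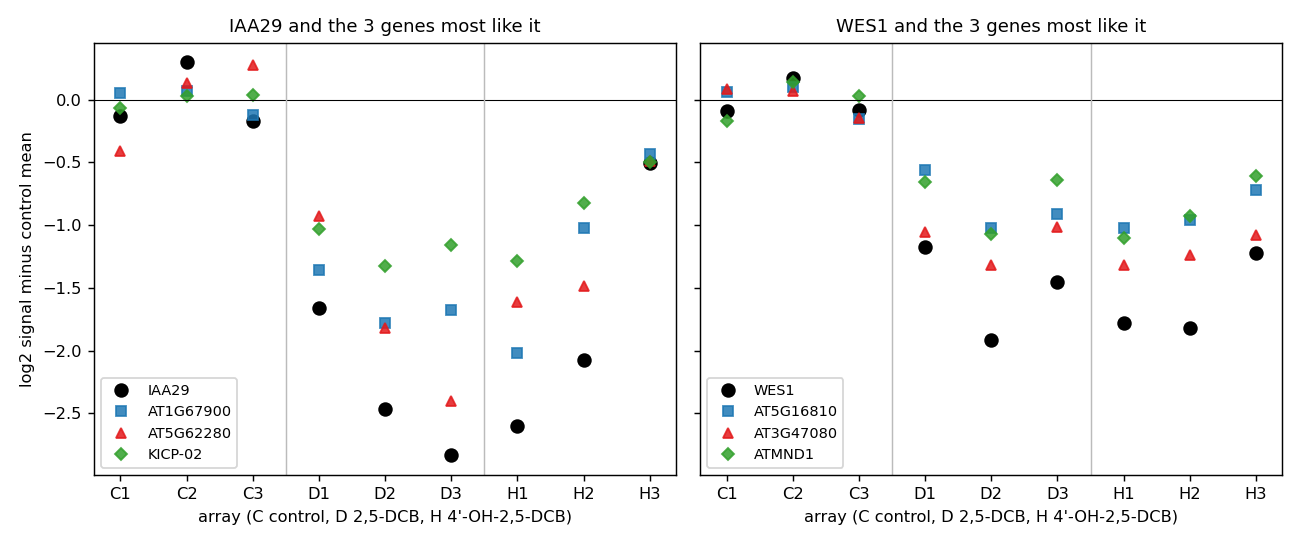
Log2 signal minus the mean of the 3 control arrays (vertical axis) on each array for IAA29 (left) and WES1 (right), black circles, with the 3 genes whose log2 signals correlate best with each over the 9 arrays. On 4'-OH-2,5-DCB replicate 3 (H3) IAA29 and its 3 like genes are all nearer the control than on the other exposed arrays, and WES1 is lower than its 3 like genes on each exposed array. The like genes were picked for their pattern over these same arrays.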

How the data were processed

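The authors deposited a log2 signal for each of 38408 probe sets on each array. Expression Console (Affymetrix) made these values, per the submitters' processing notes, and its version, summarization and background settings are not stated there. The number of arrays limits the precision. Platform annotation paired 16722 probe sets with 1 gene, 759 with several, and 20927 are unnamed here. Symbols were updated by gene ID through the RefSeq table of TAIR10.1 for 16574 of them.

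One limma model (lmFit, eBayes, version 3.58.1, under R 4.3.3) covered all 9 arrays, with 1 term per group, two-sided tests and Benjamini-Hochberg adjustment over the 16722 probe sets. No further normalization was applied. All members are named. From the auxin and shade lists, called genes are named, or else the 2 with the smallest p-values. GH3.1, GH3.3, GH3.4, GH3.17 and YUC2 were named after their values were seen. For each called member, the 3 other genes of highest r are named. Members and lists were chosen with earlier results of these data known. The fit was tested on simulated data. Alternatives were normalization, centring, filters, array subsets and weights, variance model, replicate block and arrays left out.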

Additional observations from a re-analysis of the deposited data

Results flagged for a closer look

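In 2 genes of the auxin list, all arrays of one exposed group lay above the control mean and all arrays of the other lay below it. GH3.3 had group means of 4.90 ± 0.61 in the control, 5.67 ± 0.21 with 2,5-DCB and 4.34 ± 0.38 with 4'-OH-2,5-DCB (log2 signal, SD, n = 3 each). Subtracting 2,5-DCB from 4'-OH-2,5-DCB gave a log2 difference of -1.33 (95% interval -2.03 to -0.63), and the limma test of that difference did not pass (adjusted p 0.223). With 1 array left out the difference ranged from -1.53 to -1.15, and the adjusted p from 0.145 to 0.574. YUC2, of auxin synthesis, had group means of 4.53 ± 0.06, 4.26 ± 0.14 and 4.70 ± 0.14 in the same order. Its difference was 0.44 (95% interval 0.10 to 0.78, limma adjusted p 0.390). Neither gene passed against the control, and the groups differ in dose.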

How the results depend on the processing

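The log2 changes of the 9 genes kept their direction and their side of the threshold in 426 of 456 comparisons with an alternative. Most of these changes were not called, and staying uncalled counted as kept. Leaving out an array of a group outside the comparison could not alter the size of a change. The 426 therefore say little about how stable the calls were. Of the rest, 8 were lost calls, all of IAA29 or WES1, 2 were gained calls and 20 were reversals. Called genes numbered 2 with 2,5-DCB and 1 with 4'-OH-2,5-DCB; with 1 array left out they ranged from 0 to 2 in each, and between the exposed groups from 0 to 0. The replicate numbers did not pair the samples: same-numbered arrays deviated together with r of -0.247 to 0.0742, and an array's own number was the best match in 4 of 18 cases. With the replicate block, 1 gene was called under 2,5-DCB, since IAA29 had an adjusted p of 0.0807, and the count over all probe sets fell from 777 to 397. Array weights added IAA18 under 2,5-DCB (adjusted p 0.0454). With all settings but arrays left out, the count over all probe sets ran from 397 to 2450 under 2,5-DCB, from 98 to 1827 under 4'-OH-2,5-DCB and from 0 to 349 between the exposed groups. With arrays left out these were 181 to 2161, 93 to 1197 and 0 to 63.

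Of the 12 further auxin genes, 1 was called under 2,5-DCB without probe sets under the 50th percentile or with array weights (GH3.9), 1 under 4'-OH-2,5-DCB without those under the 25th percentile (AT1G14120), and 2 with array weights (both). With arrays left out the counts ranged from 0 to 1 in either comparison. PIF7 under 2,5-DCB lost its call after quantile normalization (adjusted p 0.0503), with all probe sets (0.0508) and with the replicate block (0.0726). Under 4'-OH-2,5-DCB PIF7 gained a call without probe sets under the 25th or 50th percentile (0.0372 and 0.0221), with the eBayes trend and robust options (0.0362) and with array weights (0.00820). Under the replicate block AT1G67900, AT5G62280 and AT5G16810 lost their calls under 2,5-DCB (0.0711, 0.114 and 0.0833), and AT5G16810 and ATMND1 theirs under 4'-OH-2,5-DCB (0.0833 and 0.0886).

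The reversals were all of changes that passed under neither setting. After quantile normalization they were -0.127 for IAA20 and -0.0607 for IAA33 between the exposed groups, and -0.186 for IAA33 and -0.0252 for GH3.4 under 4'-OH-2,5-DCB. With array weights they were -0.116 for IAA20 between the exposed groups and -0.167 for GH3.4 under 4'-OH-2,5-DCB, and with centred medians 0.00261 for IAA31 under 2,5-DCB. With arrays left out, the log2 changes under 2,5-DCB ranged from -0.306 to 0.0143 for IAA30, from -0.0705 to 0.0854 for IAA31, from -0.334 to 0.0871 for IAA33 and from -0.270 to 0.322 for GH3.4. Under 4'-OH-2,5-DCB they ranged from -0.153 to 0.268 for IAA33 and from -0.0805 to 0.570 for GH3.4. Between the exposed groups the ranges were -0.0193 to 1.03 for IAA29, -0.0243 to 0.562 for IAA15, -0.204 to 0.157 for IAA34, -0.159 to 0.320 for IAA20 and -0.290 to 0.0783 for WES1. The cause was not tested.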
